A study of Mus musculus with 8 samples.

Results

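The comparison described here is that of mouse 2-cell embryos injected with Trim21 mRNA as zygotes against embryos that were never manipulated. It was made on 4 of the 8 arrays of the study, chosen by their labelled group: 2 pools of 100 embryos with Trim21 mRNA and 2 non-manipulated pools. All embryos came from B6C3F1 x CD1 matings of hormone-stimulated females, were fertilized in vivo, and carried no engineered allele. Zygotes of the injected group were moved at the mid-pronuclear stage from KSOM(aa) culture medium into Hepes-buffered CZB, received Trim21 mRNA into the ooplasm through a piezo-driven needle, and went back to KSOM(aa). The non-manipulated group stayed in the incubator throughout, so the change of medium, the needle and the mRNA itself cannot be told apart; mock-injected embryos were not analysed here. Both groups were cultured for 28 h after the time of injection (the age label says 24 h of culture), reached the late 2-cell stage, and were recorded as forming 2-cell embryos normally. Each group was prepared on a day of its own within a week, both of its pools on the same day, so day and treatment cannot be told apart either, and p-values measure only the spread between pools of a day. In pooled embryos, fewer cells of a kind and less RNA per cell cannot be told apart.

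TRIM21 is a cytosolic antibody receptor and ubiquitin ligase. Bound to an antibody it marks the antibody and its target for the proteasome, which is why its mRNA is injected together with an antibody to remove a protein from an embryo. The 2-cell mouse embryo is the stage at which transcripts stored in the egg are being degraded while the embryonic genome is switched on, so the RNA measured is a mixture of a shrinking maternal store and newly made transcripts.

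Levels are log2 values of the deposited table, in which a difference of 1 is a 2-fold change. After a single row was kept for each gene, 30697 genes were compared. The groups were close: the pools of a group correlated across genes at r = 0.9975 (non-manipulated) and r = 0.9964 (Trim21 mRNA), and pools of different groups at r = 0.9902 to 0.9938. The median size of the difference between groups was 0.17, against a median difference between pools of 0.10 for the non-manipulated and 0.12 for the Trim21 mRNA group. In 88.7% of genes the groups differed by less than 0.5.

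With limma fitted to these 4 arrays and Benjamini-Hochberg adjustment, 2513 genes (8.19%) passed an adjusted p under 0.05, 878 (2.86%) higher and 1635 (5.33%) lower in the Trim21 mRNA pools. Of them 331 differed by 2-fold or more, 158 higher and 173 lower, and the median size of a called difference was 0.66. Every called gene had pools that did not overlap between the groups, as had 60.6% of all genes. These calls rest on 2 pools a side, and a fit without any one of the 4 arrays leaves 1 pool in a group. In such fits the direction of all 2513 genes was kept, which their lack of overlap fixes in advance. When all 8 arrays of the study shared a single estimate of the spread, Trim21 alone passed and 1928 genes had an unadjusted p under 0.05; the median standard error was then 0.219, against 0.102 here. "Rose" and "fell" below refer to the 4-array fit.

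The direction of small differences followed the level of the gene. Genes with a mean log2 level from 4 to 5 had a median difference of +0.11, and those from 8 to 10 a median of −0.17. The median over all rows of an array was 4.75 and 4.77 in the non-manipulated pools and 4.87 and 4.90 in the Trim21 mRNA pools, while the spread of values within an array was narrower in the injected pools (SD 2.66 and 2.66, against 2.71 and 2.71). Aligning the array medians moves every difference down by 0.125; the median of all genes then goes from +0.04 to −0.085, and the share of called genes that are higher from 34.9% to 15.0%, against 39.2% after quantile normalization and 44.8% after cyclic loess. Against this background, 2 bodies of transcripts stood on opposite sides: small non-coding RNAs were higher, and protein-coding genes at a mean level of 6 or more were lower. Among the 8993 protein-coding genes at that level, 206 rose (2.29%) and 1290 fell (14.3%), with a median difference of −0.175 (−0.30, −0.12 and −0.086 after median centring, quantile normalization and cyclic loess). The plot of differences against level shows both.

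**Figure D1:**
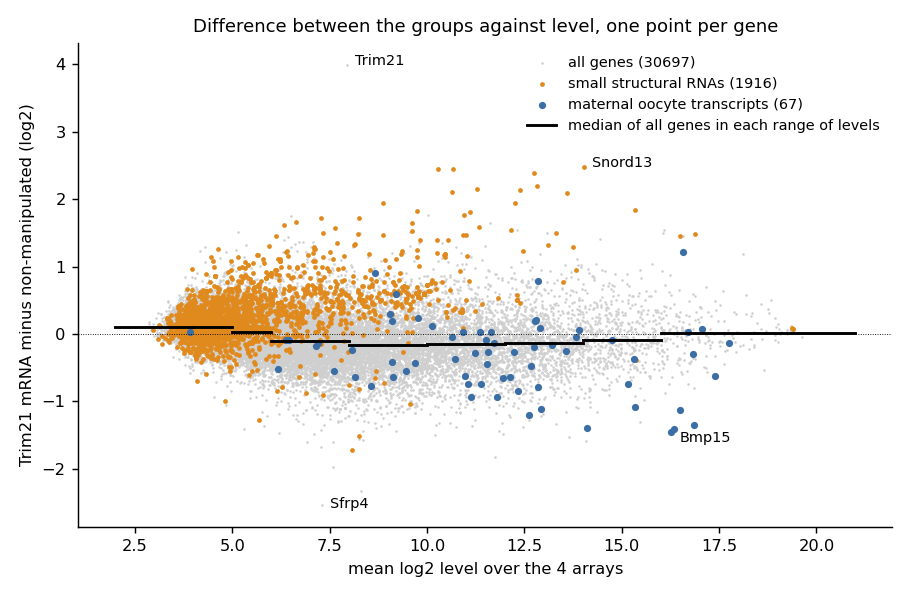
Difference between the Trim21 mRNA and non-manipulated pools (log2) against the mean log2 level over the 4 arrays, one point per gene, with small structural RNAs and the maternal oocyte list coloured and black bars at the median of all genes in each range of levels. The bars go from 0.11 at low levels to −0.17 between 8 and 10; Trim21 lies alone at 3.995 (log2), Snord13 leads the small RNAs and Bmp15 lies among the lowest maternal transcripts.

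The injected transcript was the largest rise. Trim21 measured 6.27 and 5.65 in the non-manipulated pools and 9.77 and 10.14 in the Trim21 mRNA pools, a difference of 3.995 ± 0.24 (SE), or 15.9-fold (limma adjusted p = 0.022). Injected and embryonic Trim21 RNA are not separated by this measurement. The remaining partners of TRIM21 held calls in both directions. Of 23 measured genes for TRIM21 and its ubiquitination partners, 3 rose, Trim21 itself among them, and 1 fell. Their median was +0.065 and turns to −0.06 after median centring. The list's shares were 13.0% higher and 4.35% lower, beside 2.29% and 14.3% of protein-coding genes at a level of 6 or more. The differences from these shares were not tested. Trim27, a related ubiquitin ligase, went from 8.33 and 8.23 to 8.93 and 9.00, and Ube2e1, a ubiquitin-conjugating enzyme, from 9.86 and 9.69 to 10.49 and 10.62. Ube2d2a, another conjugating enzyme and among the most highly measured of the list, fell from 17.28 and 17.23 to 16.60 and 16.30; with the mean of its rows in place of the highest, the difference was −0.44 and the call was lost. The proteasome, which degrades what TRIM21 marks, had 4 lower (10.0%, below the 14.3% of protein-coding genes at a level of 6 or more, where all 40 measured subunits and regulators lie; 14, 2 and 1 after median centring, quantile normalization and cyclic loess) and none higher; Psmc1 fell by 0.65 ± 0.11 (SE). In the COP9 signalosome, the complex that the study's antibody addresses, 1 of 10 subunits was called: Cops3 read 9.50 and 9.52 in the non-manipulated and 10.00 and 9.97 in the Trim21 mRNA pools, a rise of 0.48 ± 0.08 (limma adjusted p = 0.0374), which was not called after median centring (0.35, adjusted p = 0.0545). The list's median was −0.07, and +0.03 after cyclic loess.

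Sensors of foreign RNA and DNA and interferon-response genes held no called rise. None of 50 measured genes was called higher and 3 were lower (median +0.005, −0.12 after centring). Of the 23 at a level of 6 or more 13.0% fell. Among protein-coding genes at that level 2.29% rose and 14.3% fell. The differences from these shares were not tested. Ifnb1, the interferon beta gene, was at 4.41 and 4.43 and 4.08 and 4.50, Cxcl10, an interferon-induced chemokine, at 4.30 and 4.31 and 4.45 and 4.41, and Ifih1, the cytosolic RNA sensor MDA5, at 4.34 and 4.29 and 4.13 and 4.20, all at the low end of the scale, with group means at most 0.15 apart. Tlr9, an endosomal DNA sensor, fell from 8.57 and 8.63 to 7.70 and 7.20, Sting1, which relays cytosolic DNA sensing, from 6.49 and 6.51 to 5.65 and 5.97, and Dtx3l, a ubiquitin ligase of the interferon response, from 6.96 and 6.94 to 6.38 and 6.36. NF-kB subunits, regulators and targets likewise had no member higher of 27, and 3 lower (median +0.005, −0.12 after centring). At a level of 6 or more 23.1% of its 13 members fell, beside the same 14.3%, a difference that was not tested. Rel, an NF-kB subunit, and the adaptors Traf2 and Tab2 had differences of −0.70, −0.65 and −0.46. Tab2 was not called after quantile normalization or cyclic loess.

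Among rises of 2-fold or more, small structural RNAs were the largest group. These are short transcripts that are not translated: small nucleolar RNAs (snoRNAs) guide the chemical modification of ribosomal RNA, small Cajal body RNAs do the same for spliceosomal RNAs, small nuclear RNAs (snRNAs) build the spliceosome, and Y RNAs are bound by the Ro60 protein. Of 1916 measured genes of these kinds, 582 had a mean level of 6 or more, and 133 of these rose while 8 fell. Of all 12632 genes at that level 542 rose and 1557 fell. The median difference of the 582 was +0.53 (+0.41, +0.61 and +0.64 under median centring, quantile normalization and cyclic loess). Their median level was 7.56 and 7.57 in the non-manipulated pools and 7.92 and 8.25 in the Trim21 mRNA pools. Below a level of 6 their median was +0.14, and +0.015 after centring. Of the 158 genes that rose 2-fold or more, 83 were small structural RNAs, 22 were miRNA genes and 19 were protein-coding; of the 173 that fell 2-fold or more, 5 were small structural RNAs and 115 protein-coding. Many of these genes are near-identical copies that share probes: the 582 genes had 504 distinct sets of values, of which 123 rose and 8 fell, with a median of +0.48. Of the 218 small structural RNAs that rose at any level, 198 carry a Gm number, the symbol of a predicted gene.

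Box C/D snoRNAs, which guide methylation of the ribose, held some of the large rises. Of 27 with a numbered Snord symbol at a level of 6 or more, 10 rose and 2 fell. Their median of +0.40 lay below the +0.53 of all small structural RNAs at that level. Snord13, which acts in the maturation of 18S ribosomal RNA, read 12.98 and 12.60 in the non-manipulated and 14.92 and 15.60 in the Trim21 mRNA pools, a difference of 2.47 ± 0.25 or 5.54-fold (limma adjusted p = 0.0226). Snord69 went from 9.68 and 9.21 to 11.63 and 12.15, and Snord70 from 10.47 and 9.97 to 12.12 and 12.61. In each of these 3 the groups were further apart than the pools of either group, with the second Trim21 mRNA pool the highest. Snord49b went from 11.49 and 11.07 to 13.00 and 13.46, and the abundant Snord42a from 14.55 and 14.30 to 15.95 and 16.57. Snord118, the U8 RNA needed for the large ribosomal subunit, rose from 7.04 and 6.67 to 8.02 and 8.82 (0.63 and not called with the mean of its rows). The exceptions were clear as well: Snord72 fell from 9.06 and 8.95 to 7.70 and 7.29, and Snord61 from 10.11 and 10.04 to 9.16 and 8.92. Of 16 numbered H/ACA snoRNAs (Snora), which guide pseudouridylation, 2 rose and 1 fell; Snora30 went from 10.41 and 10.66 to 11.71 and 12.52 and Snora68 fell from 9.21 and 9.30 to 8.70 and 8.36 (not called after quantile normalization or cyclic loess). Scarna6, a Cajal body RNA, went from 7.72 and 7.08 to 8.83 and 9.40.

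RNA polymerase III products were among the risers. Both measured Y RNAs rose: Rny1 from 11.83 and 11.60 to 13.64 and 14.18 (4.58-fold, limma adjusted p = 0.0222) and the more abundant Rny3 from 16.10 and 16.16 to 17.43 and 17.81. Rmrp, the RNA of the RNase MRP enzyme, rose from 6.33 and 6.17 to 7.05 and 6.81. Rpph1, the RNA of RNase P, was not called at 13.63 and 13.06 and 13.98 and 14.61 (adjusted p = 0.0934). Rn7sk, the 7SK RNA that holds the elongation factor P-TEFb inactive, and Rn7s1, the signal recognition particle RNA, were not called either and lay near the top of the scale, Rn7sk at 19.31 and 19.33 and 19.40 and 19.41 and Rn7s1 at 19.36 and 19.35 and 19.42 and 19.43. The 5S ribosomal RNA genes could not be read as a group, because 70 gene names shared 38 sets of values; the set carried by Rn5s was 7.42 and 7.33 in the non-manipulated and 5.85 and 8.45 in the Trim21 mRNA pools, the last pair lying on either side of the first. Bc1, a short brain and germ-cell RNA of polymerase III, rose from 15.47 and 15.68 to 16.34 and 16.69 (0.94 ± 0.15, limma adjusted p = 0.0339); with the mean of its rows in place of the highest, the difference was 0.60 and not called (adjusted p = 0.0554). Its first 50 transcribed bases are shown because they hold the kind of element, within the gene, through which polymerase III recognises such RNAs (RefSeq, GRCm38.p6, chr7:144914470-144914519, plus strand); capitals mark a match to the A box, searched as TNGCNNANTGG on both strands, which occurs in 0.511% of 32851 windows of the same 50 bases after a gene's start.
Bc1: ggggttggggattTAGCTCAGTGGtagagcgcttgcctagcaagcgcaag

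**Figure D2:**
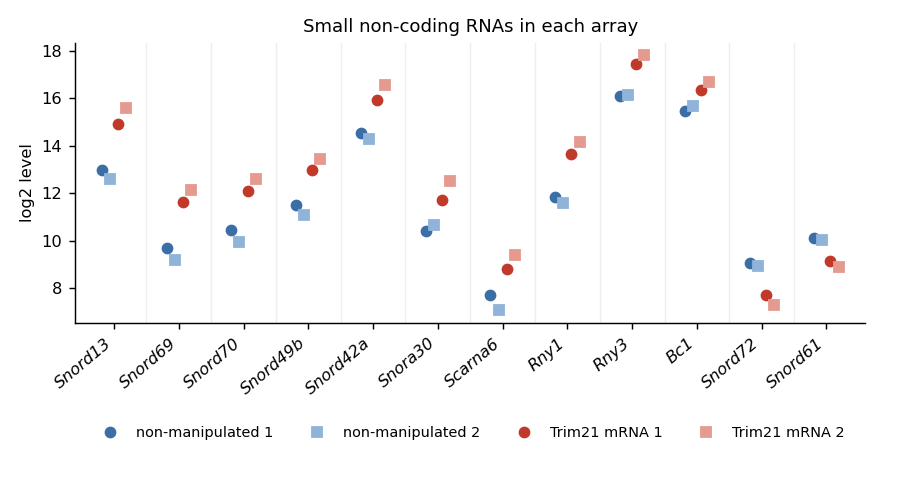
Log2 level (vertical axis) of 12 small non-coding RNAs in each of the 4 arrays: circles are replicate 1, squares replicate 2, blue non-manipulated, red Trim21 mRNA. In 10 of the 12 both red points lie above both blue points, for Snord13 at 14.92 and 15.60 against 12.98 and 12.60; Snord72 and Snord61 lie the other way.

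Genes of miRNAs moved the same way. The array reads the transcript of the miRNA gene and not the mature miRNA. Of 203 miRNA genes at a level of 6 or more, 56 rose and 3 fell, beside 542 and 1557 of all 12632 genes at that level. The median of the miRNA genes was +0.385 (+0.26, +0.41 and +0.44 under the 3 other scalings). Mir483, which lies in an intron of the growth factor gene Igf2, led with 9.29 and 8.99 and 10.92 and 10.88 (3.39-fold), followed by Mir7047 with 5.54 and 5.72 and 7.50 and 7.26. The let-7 family, a set of miRNAs known from developmental timing, is shown as well because it held calls in both directions. The mature miRNA of 13 measured genes carries the let-7 seed (bases 2 to 8). Of these genes 3 rose, 1 fell and 9 were not called (median +0.345). Mirlet7a-1 rose from 5.47 and 5.05 to 6.09 and 6.60 (not called after quantile normalization or cyclic loess), Mirlet7b from 5.71 and 5.74 to 6.60 and 6.76 and Mir98 from 5.83 and 5.61 to 6.47 and 6.64. Mirlet7d, alone among the 13 in having a negative difference, fell from 6.64 and 6.44 to 5.89 and 5.91. The 2 hairpins Mirlet7a-1 and Mirlet7d lie on chromosome 13, on the minus strand and 2064 bases apart. These miRNA genes were chosen after their values were seen. The mature sequences of the let-7 family members that moved, and of the 2 leading genes, follow from RefSeq (GRCm38.p6), with the seed in capitals; the first 4 share it and the others do not.
let-7a-5p (chr13:48538239-48538260, minus strand, higher): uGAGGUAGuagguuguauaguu
let-7b-5p (chr15:85707325-85707346, plus strand, higher): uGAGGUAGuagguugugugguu
miR-98-5p (chrX:151913229-151913250, plus strand, higher): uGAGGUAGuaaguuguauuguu
let-7d-5p (chr13:48536078-48536099, minus strand, lower): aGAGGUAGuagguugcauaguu
miR-483-3p (chr7:142654932-142654952, minus strand, higher): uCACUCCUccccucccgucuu
miR-483-5p (chr7:142654968-142654989, minus strand, higher): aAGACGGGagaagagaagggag
miR-7047-5p (chr7:24987640-24987662, minus strand, higher): uGAGGGAGgagggcugggucuga

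Replication-dependent histone genes, whose mRNAs lack a poly(A) tail, also included only rises among the called genes. Of 17 clustered histone genes at a level of 6 or more, 5 rose and none fell (5 and none under each of the 3 other scalings, median +0.41). Among all 12632 genes at that level 542 rose and 1557 fell. H2bc18 went from 11.09 and 10.48 to 12.14 and 12.73, the linker histone H1f1 from 11.72 and 11.37 to 12.97 and 13.19, and the germ-cell histone H2bc1 from 16.13 and 15.78 to 16.96 and 17.37; H2bc12 and H2bc3 rose by 1.11 and 0.79. Of 36 cytosolic ribosomal protein genes with a row of their own, Fau and Rpl7a rose, by 0.84 and 0.90, and none fell (median +0.10, −0.02 after centring). Ribosomal protein pseudogenes, near-identical copies that probes may not separate from the genes, had 21 higher and 1 lower of 210. Of 5 measured genes of the mitochondrial genome, ND6, a subunit of respiratory complex I, rose from 12.82 and 13.26 to 13.84 and 14.29 (not called after cyclic loess) and the other four were not called.

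Transcripts stored by the oocyte had the largest share of called falls among the 33 gene lists, counted over all measured members. Of 67 measured maternal oocyte transcripts, 22 fell (32.8%, beside 14.3% of protein-coding genes at a level of 6 or more, where 66 of the 67 lie), and 2 rose. The median of the list was −0.265, and −0.39, −0.26 and −0.19 after centring, quantile normalization and cyclic loess. Mitotic genes (−0.325), sterol and fatty acid synthesis (−0.32) and maternal mRNA storage and deadenylation (−0.28) had lower medians. At a level of 6 or more 33.3% of the maternal list fell, against 45.5% of immediate early genes. The differences between lists and from the 14.3% were not tested. The fall was uneven: 43 members were not called, among them Dppa3, a protector of the maternal genome's methylation, at 16.72 and 16.64 and 16.69 and 16.72, and Nlrp5, of the subcortical maternal complex, at 11.47 and 11.67 and 11.59 and 11.38. The lowest difference was that of Bmp15, an oocyte growth factor, which went from 16.99 and 17.02 to 15.79 and 15.31 (fell by 1.46 ± 0.17, or 2.74-fold; limma adjusted p = 0.0253). Bcl2l10, an apoptosis regulator abundant in eggs, went from 17.06 and 17.04 to 15.76 and 15.52, and Tcl1, a cofactor of the AKT kinase needed in early cleavage, from 17.49 and 17.56 to 16.25 and 16.10. In these 3 abundant transcripts the non-manipulated pools were nearly equal and both Trim21 mRNA pools lay more than 1 below them.

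Uchl1, a deubiquitinating enzyme of the egg, fell from 14.77 and 14.85 to 13.62 and 13.21. Wee2, the oocyte kinase that holds CDK1 inactive, fell from 15.83 and 15.92 to 14.95 and 14.63, and Dazl, an RNA-binding protein of germ cells, from 11.55 and 11.63 to 10.78 and 10.54. Genes of the zona pellucida, the coat of the egg, were lower: Zp3 fell from 13.27 and 13.19 to 12.56 and 12.33 and Zp1 from 11.80 and 11.72 to 11.07 and 10.96, while Zp2 was not called at 13.02 and 12.81 and 12.53 and 12.36. Of 8 measured paralogs of the oligoadenylate synthetase Oas1, some of which are expressed in oocytes, 4 fell: Oas1e (−0.85), Oas1d (−0.65), Oas1h (−0.64) and Oas1c (−0.55); such paralogs may share probes. After cyclic loess Oas1e alone stayed called, and after quantile normalization Oas1e and Oas1c. Shared probes are possible also for Nlrp4f (−1.21) and for Oog2 and Oog3 (−0.75 and −0.74), which fell as well. The 2 members that rose were Zar1l, a relative of the egg factor ZAR1, from 12.63 and 12.29 to 13.11 and 13.38, and the histone H2bc1 named above.

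**Figure D3:**
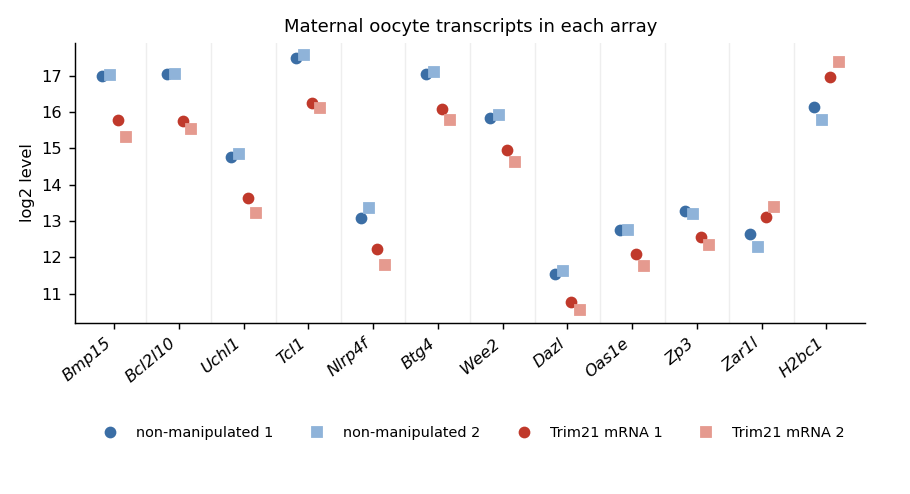
Log2 level (vertical axis) of 12 maternal oocyte transcripts in each of the 4 arrays, marked as circles for replicate 1 and squares for replicate 2, blue for non-manipulated and red for Trim21 mRNA. For the first 10 genes both red points lie below both blue points, for Bmp15 at 15.79 and 15.31 against 16.99 and 17.02; Zar1l and H2bc1 lie the other way.

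For 2 of the transcripts that fell together, the 250 bases before the start are printed, with letters known from oocyte promoters in capitals: the E-box CANNTG, the kind of site bound by FIGLA, and TAATTA or TAATTG, the core bound by NOBOX, on either strand. Of 18 maternal genes that fell and have a window in the RefSeq table (GRCm38.p6), 15 hold an E-box and 4 hold TAATTA or TAATTG; over all 32851 windows the shares are 66.2% and 11.3%. Bmp15 (chrX:6320725-6320974, minus strand) holds one of each and Tcl1 (chr12:105222738-105222987, minus strand) an E-box alone.
Bmp15: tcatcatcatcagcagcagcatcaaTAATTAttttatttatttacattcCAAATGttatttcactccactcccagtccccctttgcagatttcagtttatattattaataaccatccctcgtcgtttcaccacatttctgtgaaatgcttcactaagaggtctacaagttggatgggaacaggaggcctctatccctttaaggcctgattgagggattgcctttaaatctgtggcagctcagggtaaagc
Tcl1: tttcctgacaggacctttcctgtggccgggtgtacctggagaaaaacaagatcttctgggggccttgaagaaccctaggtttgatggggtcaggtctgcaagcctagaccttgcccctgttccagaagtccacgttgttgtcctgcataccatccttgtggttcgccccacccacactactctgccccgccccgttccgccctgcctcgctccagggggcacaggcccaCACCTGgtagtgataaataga

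Factors that store, deadenylate or clear maternal mRNA also had more falls than rises. Of 46 measured, 9 fell (19.6%) and 1 rose, with a median of −0.28 (−0.41, −0.19 and −0.18 after median centring, quantile normalization and cyclic loess, with 21, 8 and 7 lower). Of the 44 at a level of 6 or more 20.5% fell, beside 14.3% of protein-coding genes at that level, whose median was −0.175. The difference from that share was not tested. Btg4, which brings the CCR4-NOT deadenylase to maternal mRNAs, fell from 17.06 and 17.09 to 16.09 and 15.79 (limma adjusted p = 0.0235). Subunits and partners of that deadenylase followed: Cnot4 (−1.04), Cnot8 (−0.68) and Cnot6l (−0.49, from 10.18 and 10.17 to 9.77 and 9.61) fell. Ythdf3, a reader of methylated adenosine, and Patl1, a decapping activator, fell, with differences of −1.01 and −0.72. Outside this list, Eif4e1b, an oocyte form of the cap-binding protein, went from 10.98 and 10.82 to 9.71 and 9.38. It was 1 of 4 that fell among 48 translation factors and tRNA synthetases (8.33%). Fbxo43, the inhibitor that holds the egg in metaphase, went from 11.31 and 11.34 to 10.25 and 10.07. It was the only call among 23 measured genes of calcium signalling of the egg (4.35%).

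Cell cycle lists also had more falls than rises. Of 57 mitotic genes 11 fell (19.3%) and 1 rose, with a median of −0.325 (−0.45, −0.24 and −0.22 after median centring, quantile normalization and cyclic loess, with 29, 7 and 7 lower). Bub3 and Ttk, parts of the spindle checkpoint, went from 13.19 and 13.13 to 12.25 and 12.21 and from 11.48 and 11.50 to 10.52 and 10.47. Nuf2, of the kinetochore, fell by 1.16 ± 0.15 and Cenpf, a centromere protein, fell by 0.87 ± 0.11. Of 47 DNA replication genes 8 fell and 1 rose; the 17.4% that fell of the 46 at a level of 6 or more and the list median of −0.19 lie near the 14.3% and −0.175 of protein-coding genes at that level, and 15, 5 and 3 of the 47 fell under the other scalings. Mcm3, of the replicative helicase, went from 11.36 and 11.18 to 10.49 and 10.25 and Gmnn, the inhibitor of origin licensing, from 13.99 and 14.00 to 13.43 and 13.14, while Gins3, another helicase component, rose from 12.35 and 12.21 to 13.01 and 12.93. General transcription had 9 lower and 2 higher of 46 (18, 4 and 4 lower under the other scalings), with Polr2l of RNA polymerase II at −0.93 and Cdk7, of the TFIIH kinase, at +0.53. At a level of 6 or more 19.6% of the mitotic and 20.0% of the general transcription members fell, beside the same 14.3%. The difference from that share was not tested.

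Lists of genes that report stress or injury held few called rises. Rises were also few among protein-coding genes at a level of 6 or more (2.29%), and the difference from that share was not tested. Immediate early genes had 6 lower and none higher of 33 (median −0.08, −0.205 after median centring; 1 higher after cyclic loess). Dusp1, a phosphatase of MAP kinases, fell from 8.95 and 8.89 to 7.83 and 7.59 and so did its relatives Dusp6 (−1.03) and Dusp5 (−0.52, not called after quantile normalization or cyclic loess); Gadd45b, a growth arrest gene, fell from 12.42 and 12.28 to 11.19 and 11.16 and the transcription factor Klf4 from 9.28 and 9.30 to 8.47 and 8.42. Fos, the classical early gene, was not called at 4.58 and 4.56 and 4.78 and 4.76. Plasma membrane repair had 6 lower and none higher of 31 (median −0.25; 10, 4 and 3 lower after median centring, quantile normalization and cyclic loess), among them the ESCRT-III members Chmp5 (−0.73) and Chmp2b (−0.70) and the calcium sensor Pdcd6 (−0.51). In the p53 and DNA damage list 4 of 31 fell and none rose (9, 3 and 3 lower under the other scalings): Trp53inp1 (−0.91), Gadd45a (−0.88), the checkpoint kinase Chek1 (−0.91) and Ccng1 (−0.63).

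The unfolded protein and integrated stress response list had 5 lower and none higher of 36 (10, 2 and 1 lower after median centring, quantile normalization and cyclic loess), among them the cystine transporter Slc7a11 (−0.64) and the gene of the kinase PERK, Eif2ak3 (−0.49, not called after quantile normalization or cyclic loess). NRF2 and antioxidant genes had 5 lower and none higher of 26 (9, 5 and 4 lower under the other scalings): the peroxiredoxin Prdx2 went from 11.53 and 11.50 to 10.49 and 10.36, superoxide dismutase Sod1 from 13.71 and 13.83 to 13.09 and 12.84, and Nfe2l2, which encodes NRF2 itself, fell by 0.55. Heat shock and chaperone genes had 5 lower and 1 higher of 28 (9, 2 and 2 lower), with Ahsa1, a cofactor of HSP90, at −0.82 and the mitochondrial Hspe1 rising from 9.45 and 9.38 to 10.03 and 10.04. Among members at a level of 6 or more, the share that fell was 15.4% in the p53 list, 16.7% in the unfolded protein list, 21.7% in the heat shock list, 23.8% in the NRF2 list, 31.6% in membrane repair (6 of 19) and 45.5% among immediate early genes (5 of 11), beside 14.3% of protein-coding genes at that level; the difference from that share was not tested.

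In metabolism, genes of sterol and fatty acid synthesis had 8 lower and 1 higher of 29 (27.6% lower, median −0.32; −0.45, −0.29 and −0.27 after median centring, quantile normalization and cyclic loess, with 13, 4 and 3 lower). Hsd17b7, a step of cholesterol synthesis, went from 8.04 and 7.96 to 7.11 and 6.92; Fdps, Sqle and Lss, further steps, had differences of −0.69, −0.66 and −0.53, Sqle not being called after quantile normalization or cyclic loess. Glycolysis and pyruvate use had 6 lower and none higher of 26 (23.1%; 11, 4 and 3 lower under the other scalings): the glucose transporter Slc2a1 went from 7.90 and 7.89 to 7.09 and 7.01 and Pgk1, an enzyme of glycolysis, from 10.29 and 10.40 to 9.59 and 9.34. Nuclear genes of oxidative phosphorylation went both ways, 5 higher and 6 lower of 69 (14, 4 and 4 lower, and 3, 4 and 6 higher). Ndufb6 and Uqcrq, of complexes I and III, rose by 0.82 and 0.93, whereas Ndufb3 and Ndufa9 of complex I fell (−0.73 and −0.69). At a level of 6 or more the share that fell was 29.6% in the sterol list, 31.6% in glycolysis and 9.23% in oxidative phosphorylation. That of protein-coding genes was 14.3%, and the difference from it was not tested.

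Transcripts of the 2-cell stage were present in both groups, and the medians of their lists differed little. The 16 markers of the late 2-cell embryo include stored transcripts of the maternal list, among them Dppa3, Zp3 and Nlrp5. With a median level of 10.1, none of the 16 rose and 2 fell, one of them Zp3 (median difference −0.03, and +0.01 after cyclic loess with 2 higher and 1 lower). Among 34 transient 2-cell-stage transcripts 2 rose and 5 fell, with a median of −0.05 that turns to +0.03 after cyclic loess; the balance of calls moved with the scaling, to 2 higher and 11 lower after median centring, 4 and 3 after quantile normalization and 5 and 2 after cyclic loess. Zscan4e and Zscan4a, which are near-identical and may share probes, rose from 9.19 and 9.11 to 9.70 and 9.96 and from 9.53 and 9.44 to 10.05 and 10.38; Zscan4c was not called at 9.35 and 9.01 and 9.73 and 9.87. Tcstv1 fell from 12.53 and 12.56 to 11.74 and 11.98 and Pramel16 from 9.31 and 9.05 to 8.28 and 8.10. Regulators of genome activation had 3 higher and 3 lower of 42 (median −0.065, +0.02 after cyclic loess): Nr5a2 and Rarg, nuclear receptors, rose by 0.51 and 0.79, and Obox1, an egg homeobox gene, fell by 0.65. Of 46 early lineage and pluripotency regulators 4 rose and 2 fell (median +0.01, −0.11 after median centring with 4 higher and 6 lower), Esrrb going from 7.25 and 7.29 to 7.83 and 7.91 and Gata4 from 8.89 and 8.84 to 8.27 and 8.02. Markers of later preimplantation lineages had no call among 10. Ribosome biogenesis had 2 higher and 5 lower of 68 (median −0.09, +0.005 after cyclic loess; none higher and 14 lower after median centring, and 3 and 2 after cyclic loess); Fbl, the methyltransferase that works with box C/D snoRNAs, fell from 15.23 and 15.28 to 14.73 and 14.53. At a level of 6 or more, 12.5% of the late 2-cell markers and 15.2% of the transient transcripts fell. So did 7.32% of the genome activation, 6.06% of the lineage and 7.35% of the ribosome biogenesis members. Over whole lists, 5.88% of the transient, 7.14% of the genome activation, 8.7% of the lineage and 2.94% of the ribosome biogenesis members rose. Of protein-coding genes at a level of 6 or more 14.3% fell and 2.29% rose. The differences were not tested. The plot of gene list medians gives all 33 lists.

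**Figure D4:**
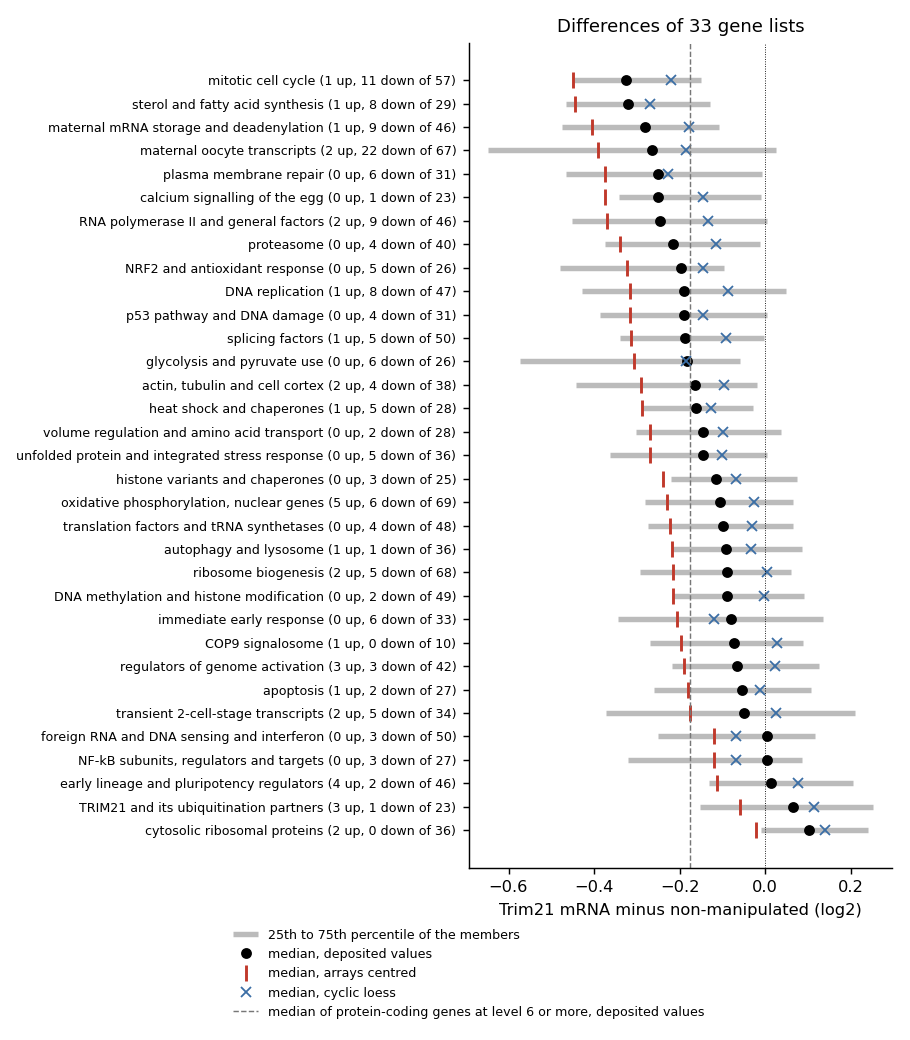
Difference (log2, Trim21 mRNA minus non-manipulated) of 33 gene lists: dots are medians of the deposited values, grey bars run from the 25th to the 75th percentile of the members, red marks are medians after centring the arrays and crosses after cyclic loess; counts of higher and lower genes stand beside each name. On the deposited scale mitotic genes lie at −0.325, sterol and fatty acid synthesis at −0.32 and cytosolic ribosomal proteins highest at 0.1025; the dashed line marks protein-coding genes at a level of 6 or more, at −0.175.

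Outside these lists, the largest rises among annotated genes after Trim21 ran from 1.97-fold to 2.54-fold. Rflnb, a regulator of actin filaments, went from 9.15 and 9.12 to 10.27 and 10.69, and Nt5c3b, a nucleotidase, from 10.19 and 10.01 to 11.30 and 11.48. Fbxo6, a glycoprotein-binding part of a ubiquitin ligase, rose by 1.20, Tekt2, a protein of cilia and flagella, by 1.12 (0.71 and not called with the mean of its rows), and Foxa1, a pioneer transcription factor, from 7.44 and 7.07 to 8.30 and 8.40. Mllt1, of the super elongation complex, rose by 1.10, Caskin1, a synaptic scaffold, by 1.08, Micos13, of the mitochondrial cristae complex, by 1.05 and the tubulin Tuba1c by 1.03. Rpl32l, Tmem192, Tfap4 and Foxe1 complete the 15 largest with ND6, and rose by 1.19, 1.02, 0.98 and 0.98. In each of these genes, as in every gene called higher, both Trim21 mRNA pools lay above both non-manipulated pools.

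The 15 largest falls, which include 4 of the maternal transcripts above and Eif4e1b, ran from 2.52-fold to 5.8-fold. Med30, a subunit of the Mediator complex, went from 12.70 and 12.64 to 10.97 and 10.72 (fell by 1.83 ± 0.11; limma adjusted p = 0.022), Zcchc3, a cofactor of nucleic acid sensing, from 9.13 and 9.15 to 7.44 and 7.70, and Timm21, of the mitochondrial import machinery, from 10.92 and 11.01 to 9.73 and 9.21. Ppme1, which demethylates the phosphatase PP2A, the lipid transporter Mfsd2a and Mphosph6, an exosome cofactor, had differences of −1.40, −1.39 and −1.34. Tmem255b, Btbd35f14 and Fam160a1 fell as far (−1.44, −1.41 and −1.37). Sfrp4, a secreted antagonist of Wnt signalling, had the largest fall of all, from 8.12 and 9.05 to 5.53 and 6.57 (−2.54 ± 0.44), with pools of each group about 1 apart; without the second non-manipulated pool the difference was −2.07.

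That pool stands apart in transcripts of ovarian somatic cells. In 30 genes the second non-manipulated pool was at least 1 above each of the other three arrays, against 1 gene for the first; Inha, an inhibin subunit of granulosa cells, read 6.30 and 10.32 in the non-manipulated and 7.30 and 7.01 in the Trim21 mRNA pools, and Hsd3b1, a steroid-synthesis enzyme, 8.59 and 10.35 and 7.12 and 7.16. Neither was called, nor was any of the 30. These genes were picked for a gap between the non-manipulated pools, which widens the spread that the test uses. After median centring Hsd3b1 was called (limma adjusted p = 0.0393), as were Kctd14 and Gm4735. Over 25 measured markers of cumulus and granulosa cells, the median difference was +0.02 (−0.105 after centring). Without overlap between the groups 8 members were higher and 7 lower, near the share of all genes (10366 and 8242 of 30697). The sum of their linear levels was 5483 and 7747 in the non-manipulated pools and 4244 and 4072 in the Trim21 mRNA pools, of which Amhr2 alone made 75.7% and 52.5% and 73.6% and 73.1%; without Amhr2 it was 1330 and 3679 against 1119 and 1095. In these arrays 8, 10, 6 and 7 markers reached a log2 level of 6. The defining markers Star, Foxl2, Amh and Fshr stayed under 5 in all 4 arrays. Cyp11a1, the first enzyme of steroid synthesis, fell from 6.38 and 6.32 to 5.07 and 5.30 with no such gap between pools, and Amhr2, the receptor of anti-Mullerian hormone, fell from 12.02 and 11.99 to 11.61 and 11.54 (not called after quantile normalization or cyclic loess); none of the 25 rose. The part of these cells in the falls of Sfrp4 and of the maternal list was not tested. The maternal median was −0.315 without the second non-manipulated pool and −0.235 without the first, which with 1 pool left is no test of that part. Markers of sperm had 1 higher of 19, of oviduct epithelium 1 lower of 15, and of blood and immune cells none called of 14. In the second Trim21 mRNA pool 52 genes were at least 1 above the other three arrays, many of them 5S RNA copies and small RNAs; without that pool the median of small structural RNAs at a level of 6 or more was +0.37, and without the first it was +0.70.

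**Figure D5:**
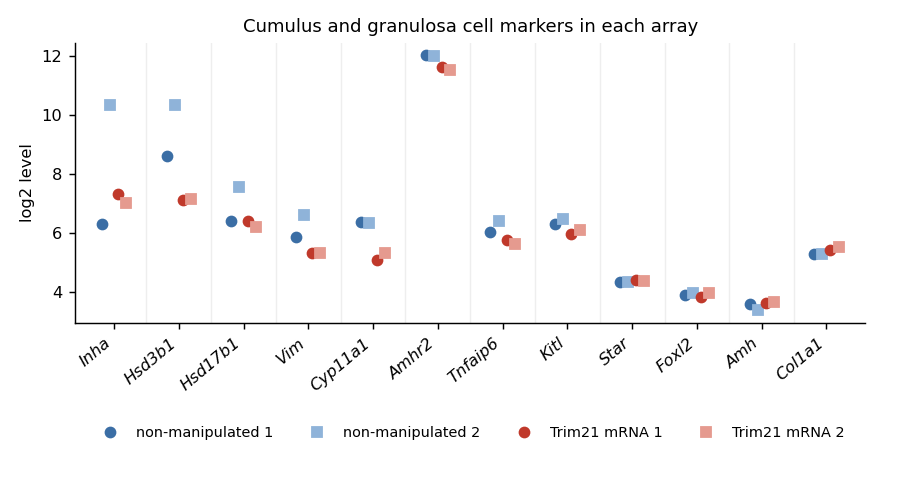
Log2 level (vertical axis) of 12 of the 25 measured cumulus and granulosa cell markers in each of the 4 arrays, with circles for replicate 1, squares for replicate 2, blue for non-manipulated and red for Trim21 mRNA. Inha reaches 10.32 and Hsd3b1 10.35 in the second non-manipulated pool, above the other arrays, while Star, Foxl2 and Amh stay under 5 in all.

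The remaining 4 arrays of the study give values for the same members, in embryos treated on other days with an antibody against COPS3, alone or with Trim21 mRNA; no test was made across days. Trim21 read 10.40 and 10.30 in the pools with mRNA and antibody, and 6.76 and 6.37 in those with antibody alone, the latter close to the 6.27 and 5.65 of the non-manipulated pools. Snord13 read 18.15 and 18.62 with mRNA and antibody, and 10.62 and 11.30 with antibody alone, beside 14.92 and 15.60 with Trim21 mRNA. Rny1 followed the same order, at 15.95 and 16.21 and 9.20 and 8.17. For both of these RNAs the 2 groups that received Trim21 mRNA held the highest levels. Mir483 differed, reading 12.75 and 13.12 with mRNA and antibody and 11.37 and 9.38 with antibody alone, all above the 9.29 and 8.99 of the non-manipulated pools. Bmp15 was lower with Trim21 mRNA alone than in any other group, at 17.65 and 16.83 with mRNA and antibody and 18.60 and 18.48 with antibody alone, and so was Tcl1, at 17.71 and 17.34 and 18.02 and 18.10.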

How the data were processed

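RNA of pooled 2-cell embryos was hybridised to Affymetrix whole-transcript arrays after preparation with a GeneChip WT Pico kit and 8 cycles of amplification, per the labels' protocols. The authors deposited log2 values per transcript cluster, made with Affymetrix Expression Console per the submitters' processing notes; its version, summarisation and background correction were not stated there. The log2 scale was read from the deposited values; 1 of 65956 clusters was dropped for a value over 100, an entry in a single array. Symbols came from the platform annotation and were updated through RefSeq (1201 changed): 31255 clusters had 1 symbol, 1494 several and 33206 none, and only the first were used. Where a gene had several clusters (443 genes), the highest by its mean over the whole series of 8 arrays stood for it, giving 30697 genes. Genes that are copies of each other may share probes: 30391 sets of values were distinct.

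Differences came from the moderated linear model of limma 3.58.1 (R 4.3.3) on the 4 arrays of the comparison, with Benjamini-Hochberg adjustment over all genes and a threshold of 0.05; residual degrees of freedom were 2, and 5.3 with the prior. An exact permutation test of 2 pools against 2 cannot go below p = 0.333 (two-sided). The step was tested on simulated data. Number of arrays limits the precision. Gene lists and members were chosen with earlier results of these data known; a list is described by its counts and median beside those of all genes. Genes were named if they were Trim21, among the 15 largest called rises or falls, among the 5 largest at a mean level of 10 or more, or among a list's first 5 called members by p (its first 2 by p in a list with no call), leaving out predicted genes, small RNAs, clustered histones and receptor families; the small RNAs, histones and further list members named were chosen after their values were seen. Replicate numbers did not pair the pools: deviations of same-numbered pools correlated at 0.0015. Sequences are from RefSeq tables (GRCm38.p6).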

Additional observations from a re-analysis of the deposited data

How the results depend on the processing

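The 2513 called genes (878 higher, 1635 lower, 331 at 2-fold or more) depended on the estimate of the spread. Fitting all 8 arrays together left 1 call, Trim21 (1 higher, 0 lower, 1 at 2-fold or more), with 1928 genes at an unadjusted p under 0.05, and leaving out any single array left 0 called, 0 higher, 0 lower and 0 at 2-fold or more by limma (5115 to 7649 unadjusted). Median centring gave 4353 calls, 3700 of them lower; cyclic loess gave 990 lower; the filter on a mean level of 6 gave 3795 calls of 12632 genes, 2744 of them lower. Quantile normalization, the other choices of a gene's row and a trended robust prior kept each count within 1.5 times.

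The median difference of all genes, 0.04, became −0.085 after median centring, −0.04 after quantile normalization, −0.026 after cyclic loess and −0.125 in the genes at a mean level of 6 or more. With the replicate number as a block, 0 genes passed (0 higher, 0 lower; 7742 unadjusted) and Trim21 kept its difference of 3.995 at an adjusted p of 0.14 by limma; since the numbers did not pair the pools, this says only that a residual degree of freedom was spent. Leaving out each array in turn, the Trim21 difference ran from 3.685 to 4.305, with limma adjusted p from 0.137 to 0.283.

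Of 158 further genes that were called and examined under each alternative, 155 stayed called after median centring, 142 after quantile normalization, 136 after cyclic loess and 151 under the trended robust prior. None reversed its direction under any of the 14 alternatives run. Where an array was left out, their lack of overlap fixes this in advance. The fit of all 8 arrays, the replicate block, the level filter and the trended robust prior leave each difference unchanged, so they could not reverse it. The median difference changed sign under at least 1 of the 3 scalings in 9 of the 33 gene lists, each named above, and in 4 of the 6 lists of cell type and stage markers.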
